A study of Mus musculus with 20 samples.

Results

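The genes described here are the 3 DNA methyltransferases Dnmt1, Dnmt3a and Dnmt3b, the methyltransferase cofactor Dnmt3l, the dioxygenases Tet1, Tet2 and Tet3, and Uhrf1, which guides Dnmt1 to its substrate. They were chosen as the probe sets whose only gene symbol is one of these names, which gave 20 of 34945 such probe sets and 8 of 18193 genes. The samples were whole wild-type C57BL/6 mouse embryos without the amnion, of both sexes, kept free of specific pathogens, and total RNA of several embryos was pooled for a sample. The set holds 20 Affymetrix mouse expression arrays, 3 for each stage in daily steps (E7.5, E8.5, E9.5 and then E10.5) and 2 for each of E12.5, E14.5, E16.5 plus E18.5. No embryo was mutant or treated, and every comparison is of a later with an earlier stage. Pools of several embryos hide differences between single embryos, so p-values measure the spread between pools.

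Methylation of cytosine, mostly in CG pairs (CpG), is set down on unmethylated DNA by Dnmt3a and Dnmt3b, and Dnmt3l, which has no catalytic activity of its own, stimulates both. Dnmt1 copies the pattern onto the new strand at replication, where Uhrf1 recognises DNA methylated on a single strand. Tet enzymes oxidise methylcytosine, the first step of its active removal. In the mouse the genome is methylated anew around implantation, shortly before the earliest stage measured here.

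Values are MAS5 signals, a brightness per probe set. A change is given as the difference between stages of log2(signal + 25.9), with its SE from limma, a scale that understates the change of dim probe sets. A gene was called where the change was at least 2-fold with a Benjamini-Hochberg adjusted p below 0.05 over the 14044 genes tested, and 7 of the 8 genes were tested. Tet3 was left out because its probe set was above the array median on 1 of 20 arrays. Arrays up to E10.5 and arrays from E12.5 on stood apart as 2 array sets: array medians were 156 to 178 in the later set and 67.2 to 91.1 in the earlier, and a control transcript probed in its middle part (dap) read 1810 to 2570 in the later set and 50.8 to 119 in the earlier. Array set and stage cannot be told apart for E12.5 against E10.5, so the comparisons inside a set carry the account. Arrays of the same stage had Pearson correlations of 0.977 to 0.991 over all probe sets. The samples are bulk RNA of whole embryos, in which fewer cells of a type and less RNA per cell cannot be told apart. Levels of different probe sets are not set against each other.

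From E7.5 to E10.5 the de novo methyltransferase Dnmt3b fell and Tet2 rose, each on its representative (brightest) probe set, and the cofactor Dnmt3l had signal above the array median at E7.5 alone. The other de novo enzyme, Dnmt3a, was called higher over those stages on 1460324_at (log2 change 2.10), 1423063_at (1.32) and 1423065_at (1.26). Its representative was higher by less than 2-fold (0.56). From E12.5 to E18.5 Dnmt3a fell by at least 2-fold on 3 of its 5 probe sets, the representative among them. The maintenance pair Dnmt1 and Uhrf1 were lower by less than 2-fold on their representatives and by more on their other probe sets. In E10.5 against E7.5, 3 of the 7 tested genes were called, against 23.5% of all genes tested, and of their 18 tested probe sets 7 were called, against 21.6% of 25550 probe sets. The filter on dim signals fixed the call of Dnmt3l, and without it 2 of 6 genes and 6 of 17 probe sets were called. In E18.5 against E12.5, 1 of 7 was called, against 21.7% of all genes, and 7 of the 18 probe sets were, all lower, against 18.4% of probe sets. With so few genes these shares were not read as a result about the group, and the account below is of the single genes. The plot of signals by array shows all 8 genes.

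**Figure D1:**
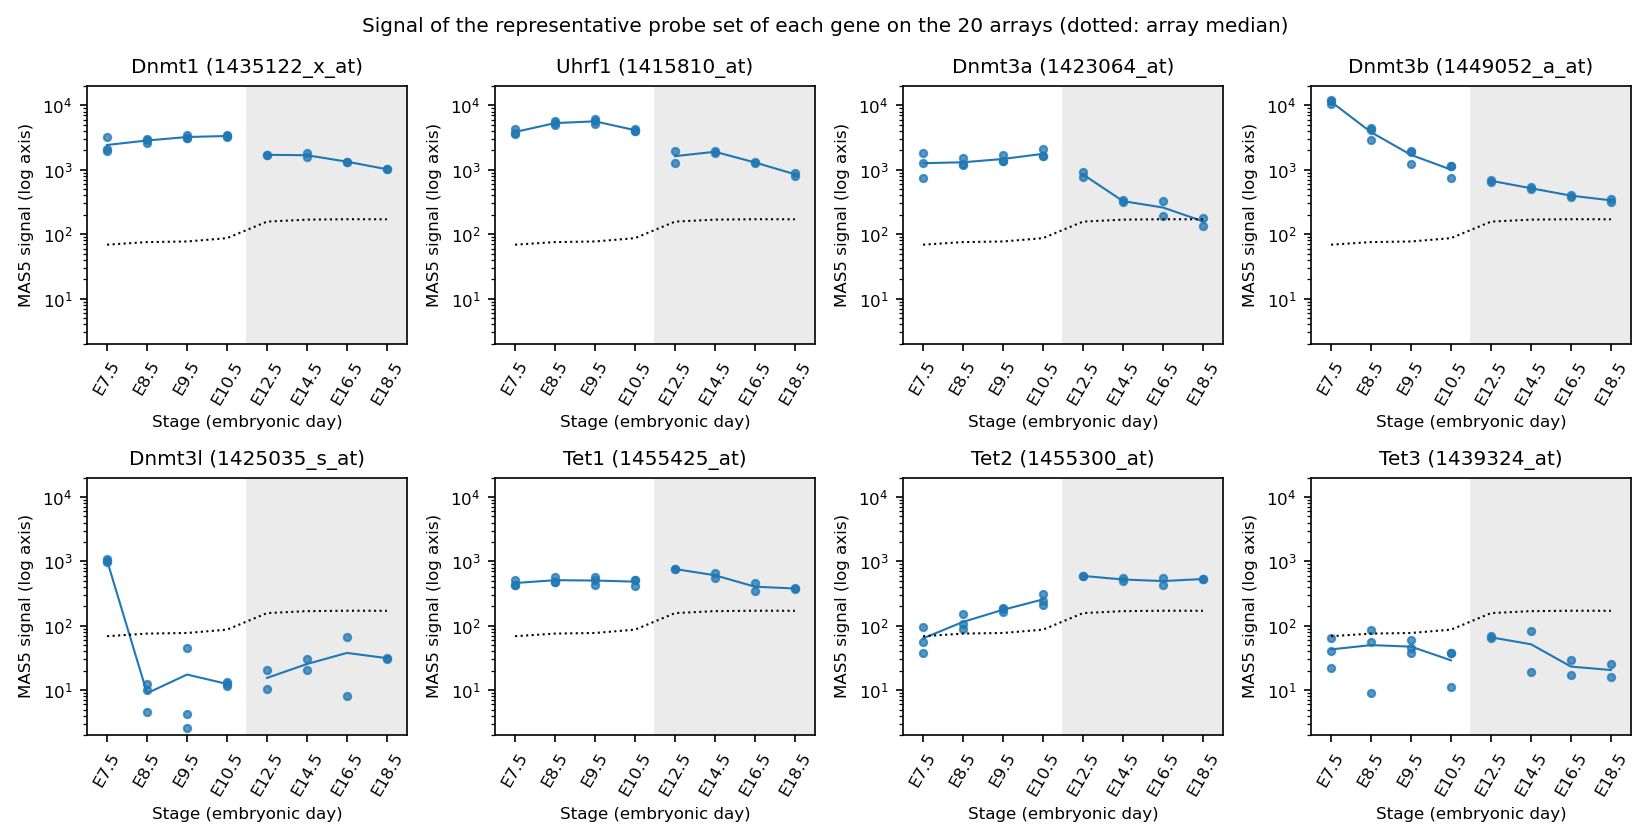
MAS5 signal (log axis) of the representative probe set of each of the 8 genes on the 20 arrays, by stage (embryonic day), with points for arrays, lines for stage means and a dotted line for the median signal of the arrays. The shaded stages belong to the later array set, across which lines are not joined. The mean of Dnmt3b was lower at each later stage, Dnmt3l was above the array median at E7.5 alone, and the signals of Tet3 lay mostly under the array median.

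On its representative probe set the mean of Dnmt3b was lower at each stage than at the one before. This probe set, 1449052_a_at, read 10326, 12036 and 11815 at E7.5, then 2902, 4203 and 4401 at E8.5, 1252, 1947 and 1911 at E9.5, and 734, 1138 and 1148 at E10.5. In the later array set it read 701 and 650 at E12.5, 503 and 532 at E14.5, 381 and 413 at E16.5, and 355 and 317 at E18.5. No stage overlapped its neighbour on this probe set. The 3 steps inside the later array set did not pass the test (adjusted p = 0.334, 0.345 and 0.564, limma), and the step at E12.5 crosses the array sets. At E10.5 the mean was 1007 ± 236, against 11392 ± 930 at E7.5 (SD, n = 3 each), a log2 change of -3.49 ± 0.17 or an 11.3-fold fall on that scale (adjusted p = 9.1e-13, limma).

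The fall of Dnmt3b was spread over several days. It was called in E8.5 against E7.5 (-1.58 ± 0.17, adjusted p = 3.7e-07) and in E9.5 against E8.5 (-1.16 ± 0.17, adjusted p = 6.8e-05). The change was -0.74 in E10.5 against E9.5 (adjusted p = 0.0047), under the 2-fold limit. Without E9.5 replicate 1, the lowest array of that stage, the change of E9.5 against E8.5 was -0.96 and was no longer called. The array numbered 1 was the lowest of the 3 at each of the 4 earlier stages on this probe set, and without those 4 arrays the change of E10.5 against E7.5 was -3.35. The second Dnmt3b probe set, 1418351_a_at, changed by -3.33 in E10.5 against E7.5 and was also called, while its change in E9.5 against E8.5 was -0.91. It did not keep the order of age, with 87.7 and 186 at E16.5, against 103 and 109 at E14.5.

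Dnmt3l behaved differently, with signal at a single stage. Its probe set, 1425035_s_at, read 1080, 978 and 1025 at E7.5. At E8.5 it read 12.3, 4.63 and 9.97, at E9.5 2.56, 4.22 and 45.6, and at E10.5 13.4, 12.6 and 11.4. From E12.5 on the 8 arrays lay between 8.24 and 67.4. Only the 3 arrays of E7.5 were above the array median, so the gene passed the filter through that stage alone and had to differ from it. As a description, the log2 change in E8.5 against E7.5 was -4.92, and the scale bounds it, since most later signals were under the pseudocount. With a pseudocount 4 times smaller the same change was -6.1, and with 1 that was 4 times larger it was -3.33. Consecutive stages after E8.5 differed by at most 0.32 on the log2 scale, and none of these steps was called. The suffix _s_at marks a probe set that can also match transcripts of another gene.

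The start regions of Dnmt3b and Dnmt3l differ in their number of CG, the pair that is mostly methylated, which is why both are shown, with each CG in capitals. Sequences are RefSeq's, from 250 bases before to 50 after an annotated start on build GRCm38.p6. Dnmt3b has 1 listed start, on the plus strand at chr2:153649199-153649498, with 30 CG, and Dnmt3l has 3, of which the first, on the plus strand at chr10:78042037-78042336, has 6. All 32851 such windows had a median of 7.
Dnmt3b: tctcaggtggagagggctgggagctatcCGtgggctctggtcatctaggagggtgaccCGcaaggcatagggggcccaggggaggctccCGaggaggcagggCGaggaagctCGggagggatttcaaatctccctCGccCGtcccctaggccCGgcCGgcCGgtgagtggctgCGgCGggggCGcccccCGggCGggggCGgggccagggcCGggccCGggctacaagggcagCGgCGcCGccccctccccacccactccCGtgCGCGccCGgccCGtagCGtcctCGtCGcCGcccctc
Dnmt3l start 1: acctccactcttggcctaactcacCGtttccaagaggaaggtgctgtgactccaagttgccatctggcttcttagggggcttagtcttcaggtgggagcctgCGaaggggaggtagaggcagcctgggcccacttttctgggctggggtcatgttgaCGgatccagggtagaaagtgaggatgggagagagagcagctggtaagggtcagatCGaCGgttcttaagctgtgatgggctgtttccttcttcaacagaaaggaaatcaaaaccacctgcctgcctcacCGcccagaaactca
The other Dnmt3l windows held 4 and 3 CG, so all 3 were under the median of all windows. Of all windows, 11.7% held at least as many CG as that of Dnmt3b and 56.4% at least as many as the first of Dnmt3l. No methylation was measured in this series.

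Epiblast, trophoblast and endoderm markers fell along with Dnmt3b and Dnmt3l at the first step. In E8.5 against E7.5, 9 of 13 epiblast and pluripotency genes, 5 of 9 trophoblast genes and 11 of 12 visceral and yolk sac endoderm genes were called lower, where 11.2% of all genes were called in either direction and 2 of the 7 genes described here. The summed signal of the 13 epiblast genes was 4120 to 5255 on the arrays of E8.5, against 11180 to 12090 at E7.5. Pou5f1, a pluripotency factor, averaged 179 at E8.5, against 2765 at E7.5, and Nanog, another, averaged 4.41, against 299. The summed signal of 10 trophoblast genes was 8351 to 11270 at E8.5, against 19400 to 22020 at E7.5, and that of 12 endoderm genes was 36080 to 40820, against 117600 to 130900. Elf5, a trophoblast stem cell factor, averaged 62.7 at E8.5, against 2487 at E7.5. At E10.5 the epiblast sum, 4134 to 5046, overlapped that of E8.5, while Dnmt3b had gone on falling. The trophoblast sum at E10.5 was 1987 to 2335 and the endoderm sum 10060 to 11560, both under those of E8.5. The part of these cell types in the changes of Dnmt3b and Dnmt3l was not tested.

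**Figure D2:**
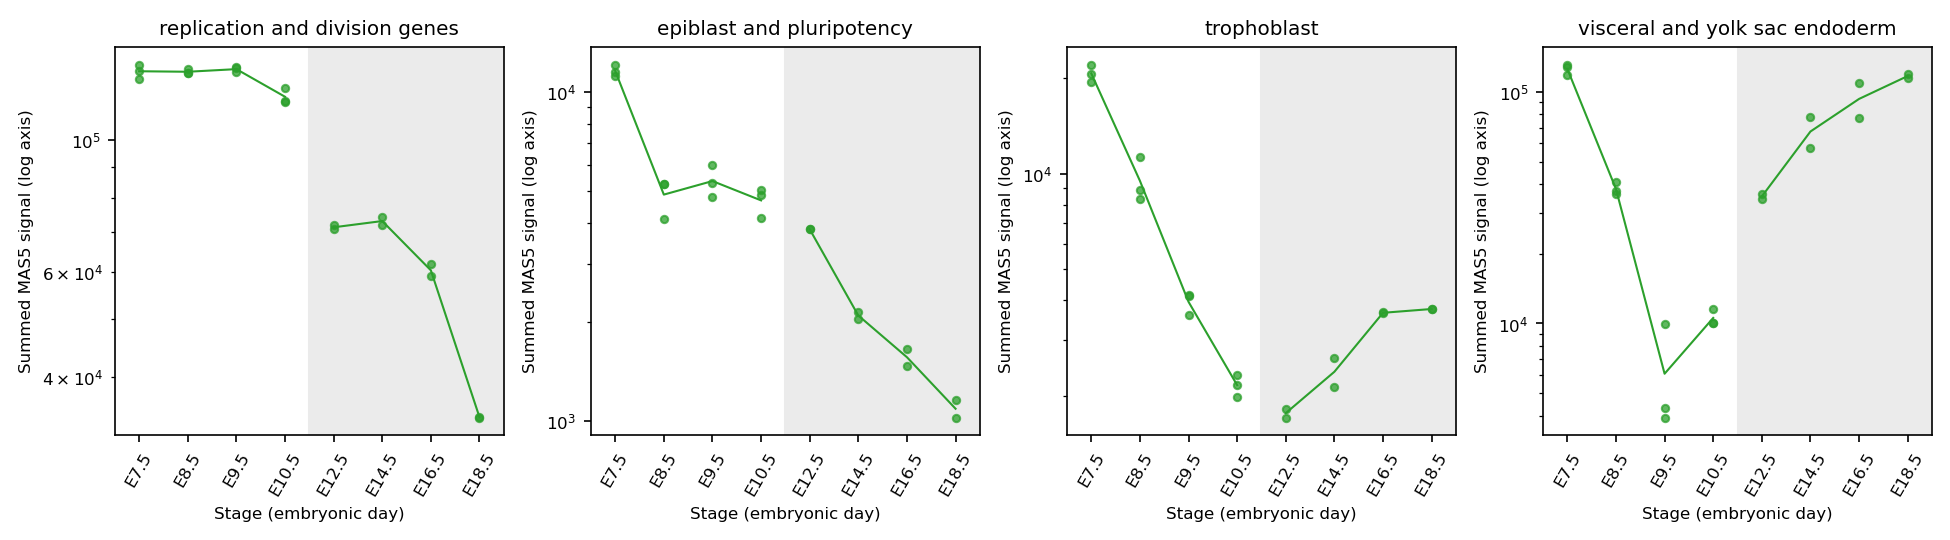
Summed MAS5 signal (log axes that differ in range between panels) of 4 marker lists by stage (embryonic day), with points for arrays and lines for stage means. Shaded stages belong to the later array set. The epiblast, trophoblast and endoderm sums were highest among the earlier stages at E7.5, and the replication sum was lowest at E18.5.

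Dnmt3a, the second de novo methyltransferase, was measured by 5 probe sets, and they did not move alike. The representative, 1423064_at, read 1791, 738 and 1267 at E7.5, 1501, 1239 and 1189 at E8.5, 1676, 1347 and 1394 at E9.5, and 2074, 1625 and 1619 at E10.5. From E12.5 on it read 782 and 915, then 335 and 318 at E14.5, 327 and 192 at E16.5, and 181 and 136 at E18.5. The earlier stages overlapped, and the later ones ran downwards, with E14.5 and E16.5 overlapping. At E18.5 the mean was 159 ± 31.6, against 848 ± 94.4 at E12.5 (SD, n = 2 each), a log2 change of -2.25 ± 0.27 (adjusted p = 1.0e-06). Most of that fall lay in E14.5 against E12.5, where the change was -1.31 (adjusted p = 0.0035) and 3.65% of all genes were called. Without E12.5 replicate 2 that step was -1.196 and not called (adjusted p = 0.0508).

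Probe set 1460324_at gave another profile for the same gene symbol. It read 149, 196 and 145 at E7.5, 174, 163 and 186 at E8.5, 377, 378 and 343 at E9.5, and 707, 835 and 805 at E10.5. It then read 1272 and 1462 at E12.5, 1252 and 1441 at E14.5, 995 and 1006 at E16.5, and 991 and 982 at E18.5. This signal was higher at E10.5 than at E7.5 by more than 2-fold, where the representative changed by less, and was lower at E18.5 than at E12.5 by less than 2-fold, where the representative fell by more. At E10.5 the mean was 782 ± 66.8, against 163 ± 28.3 at E7.5, a log2 change of 2.10 ± 0.11 (adjusted p = 6.9e-12 over 25550 probe sets). Its change in E18.5 against E12.5 was -0.46 ± 0.14, under the 2-fold limit.

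In E10.5 against E7.5, 1423063_at rose by 1.32 and 1423065_at by 1.26 on the log2 scale, and 1423066_at changed by 0.67, less than 2-fold. In E18.5 against E12.5, 1423066_at changed by -2.54 and 1423065_at by -1.44, both called, and 1423063_at by -0.74, not called. All 5 probe sets changed in the same directions at an adjusted p below 0.05, higher early and lower late, and they differed in which change passed 2-fold.

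**Figure D3:**
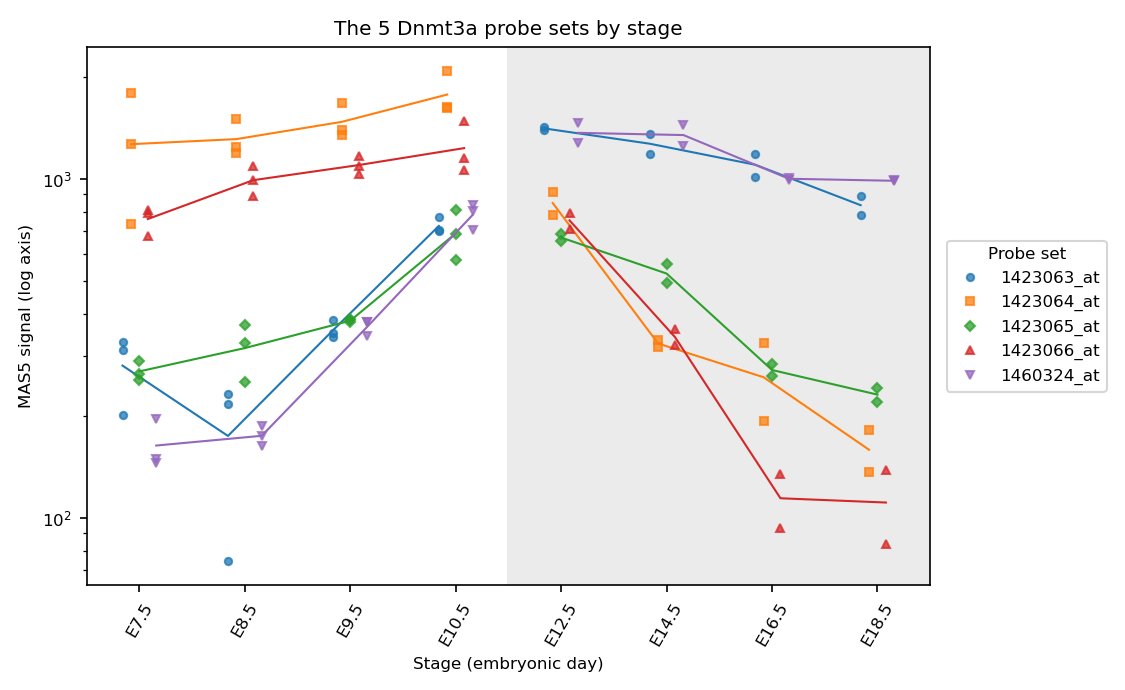
MAS5 signal (log axis) of the 5 Dnmt3a probe sets by stage (embryonic day), with points for arrays and lines for stage means, joined within an array set, and shading for the later set. 1460324_at and 1423063_at were higher at E10.5 than at E7.5 and lay between 780 and 1462 from E12.5 on, where 1423064_at and 1423066_at declined to between 83.9 and 181 at E18.5.

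The difference between probe sets was tested itself, as the change of the log2 difference of 2 probe sets of a gene, over all 19456 such pairs of 6613 genes. Of the 10 Dnmt3a pairs, which share probe sets with each other, 2 were called in E10.5 against E7.5, where 8.33% of all pairs were, and 4 in E18.5 against E12.5, where 1.2% were. The difference of 1423066_at minus 1460324_at changed by -1.43 ± 0.22 in E10.5 against E7.5 (adjusted p = 0.00039) and by -2.08 ± 0.27 in E18.5 against E12.5 (adjusted p = 0.00054). The difference of 1423064_at minus 1460324_at changed by -1.55 (adjusted p = 0.0030) and -1.79 (adjusted p = 0.028) in the same comparisons. The other called pairs, in E18.5 against E12.5 alone, were 1423066_at minus 1423063_at at -1.80 (adjusted p = 0.035) and 1423066_at minus 1423065_at at -1.10 (adjusted p = 0.021). No pair of probe sets of Dnmt1, Dnmt3b, Tet1, Tet2 or Uhrf1 was called in either comparison. A statement on Dnmt3a from these arrays therefore depends on the probe set, and the positions of the probes in the transcript were not analysed here.

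Dnmt3a is also known to be transcribed from more than 1 promoter, the downstream one giving a protein with a shorter amino terminus. RefSeq lists 3 starts, all on the plus strand of chromosome 12. The first, at chr12:3806730-3807029, and the third, which lies 84764 bases downstream at chr12:3891494-3891793, are printed to show both ends of that range, again with CG in capitals.
Dnmt3a start 1: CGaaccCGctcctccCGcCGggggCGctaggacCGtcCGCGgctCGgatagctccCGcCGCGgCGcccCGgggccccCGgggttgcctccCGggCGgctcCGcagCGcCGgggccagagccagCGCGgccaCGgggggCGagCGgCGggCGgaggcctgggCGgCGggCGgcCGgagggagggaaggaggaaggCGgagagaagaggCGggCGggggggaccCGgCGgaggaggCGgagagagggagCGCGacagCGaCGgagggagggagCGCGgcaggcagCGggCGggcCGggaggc
Dnmt3a start 3: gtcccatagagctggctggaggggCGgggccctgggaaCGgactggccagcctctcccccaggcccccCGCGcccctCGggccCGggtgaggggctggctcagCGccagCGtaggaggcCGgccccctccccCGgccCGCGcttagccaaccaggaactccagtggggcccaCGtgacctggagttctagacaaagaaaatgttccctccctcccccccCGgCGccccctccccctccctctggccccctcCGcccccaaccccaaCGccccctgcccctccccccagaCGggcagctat
The first window held 46 CG, the second, 180 bases from the first, held 47, and the third held 18. Of all windows, 1.6% held at least 46 CG and 29.7% held at least 18. Which start the 5 probe sets report on was not tested. The plot of CG counts shows all 15 windows of the 8 genes.

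**Figure D4:**
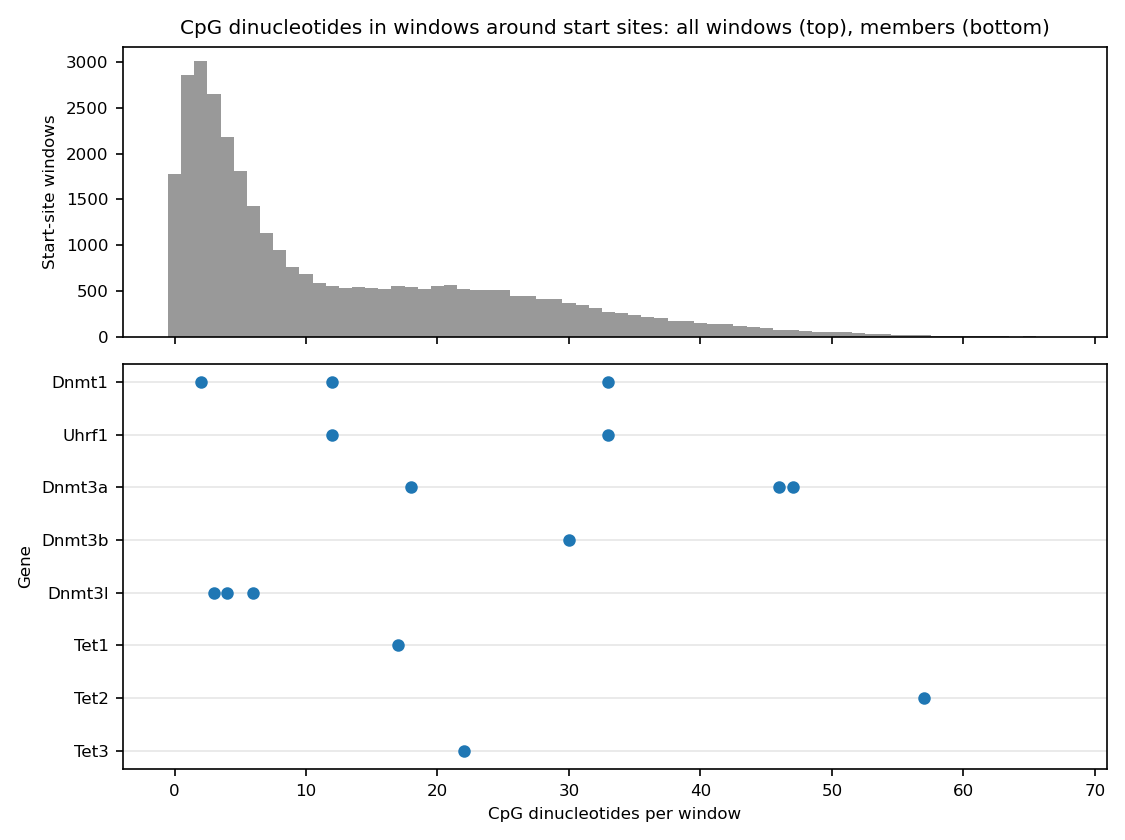
Number of CpG dinucleotides per window of 300 bases around annotated start sites, as a histogram over all 32851 RefSeq windows (top, number of windows) and as points for the windows of the 8 genes (bottom). The 3 windows of Dnmt3l hold 3 to 6 CpG, under the median of 7, and that of Tet2 holds 57.

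On their representatives Dnmt1 and Uhrf1, which act together behind the replication fork, had lower signals in the later array set than up to E10.5. Array set and stage cannot be told apart in that difference. Another Dnmt1 probe set, 1447877_x_at, changed by only -0.015 in E12.5 against E10.5. Dnmt1 (1435122_x_at) read 3220, 2136 and 1937 at E7.5, 2897, 3046 and 2608 at E8.5, 3148, 3411 and 3133 at E9.5, and 3437, 3398 and 3205 at E10.5. It then read 1698 and 1722 at E12.5, 1794 and 1573 at E14.5, 1337 and 1339 at E16.5, and 1017 and 1026 at E18.5. At E10.5 the mean was 3347 ± 124, against 2431 ± 691 at E7.5, and the arrays overlapped because 1 array of E7.5 read 3220. The change was 0.49 ± 0.12 (adjusted p = 0.0020), less than 2-fold. Leaving out that array, E7.5 replicate 1, raised it to 0.71.

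Uhrf1 (1415810_at) read 3730, 4292 and 3574 at E7.5, 4959, 5721 and 5253 at E8.5, 5057, 5786 and 6131 at E9.5, and 4005, 3982 and 4376 at E10.5. It then read 1297 and 1964 at E12.5, 1967 and 1845 at E14.5, 1330 and 1270 at E16.5, and 899 and 807 at E18.5. Its means were highest at E9.5 and E8.5, which did not differ beyond their spread, and E10.5 lay back near E7.5, with a change of 0.09 ± 0.12 between these.

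Both were lower at E18.5 than at E12.5. At E18.5 Dnmt1 averaged 1021 ± 6.52, against 1710 ± 16.9 at E12.5, a log2 change of -0.73 ± 0.15 (adjusted p = 0.00044). Uhrf1 averaged 853 ± 65.1 at E18.5, against 1631 ± 471 at E12.5, a change of -0.89 ± 0.14 (adjusted p = 2.8e-05). Neither reached 2-fold on these probe sets. The other probe sets did: 1422946_a_at (-1.10) and 1447877_x_at (-1.11) for Dnmt1 and 1415811_at (-1.39) for Uhrf1 were called. For Dnmt1 the choice of representative was close, with a mean log2 of 11.11 for 1435122_x_at and 11.1 for 1422946_a_at. E12.5 replicate 1 was low for Uhrf1, and without it the change was -1.18 and was called, against -0.59 without replicate 2. Of the 18 tested probe sets of the 8 genes, 7 were called lower in E18.5 against E12.5, where 18.4% of 25550 probe sets were called in either direction.

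The replication and division genes moved with these differences. Of 17 such genes 10 were called lower in E18.5 against E12.5, where 21.7% of all genes were called in either direction. Among the 10 were Bub1, a spindle checkpoint kinase (-1.44), and the replicative helicase subunits Mcm4 (-1.30), Mcm5 (-1.30) and Mcm2 (-1.29). All 17 were lower at an adjusted p below 0.05, and their median change was -1.07, against -0.09 over all genes. Their summed signal was 34180 to 34270 at E18.5, against 70710 to 71910 at E12.5. In E10.5 against E7.5, 1 of 17 was called, Mki67, a proliferation antigen, which rose by 1.07. With no minimum fold 3 of the 17 were higher and 9 lower at an adjusted p below 0.05, and their median change was -0.26, against 0.11 over all genes. The part of dividing cells in the changes of Dnmt1 and Uhrf1 was not tested. Over the 8 later arrays Dnmt1 and Uhrf1 correlated at 0.912 and over the 12 earlier ones at 0.299, as a description of arrays that share stages. The later value was not particular to this pair. Over the same 8 arrays Dnmt3a correlated with Dnmt3b at 0.922 and with Tet1 at 0.91, while other pairs were lower, such as Tet2 with Uhrf1 (0.158).

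Both genes have a start window with a word of the E2F factors, which drive genes of DNA replication, and these windows are printed with the words in capitals. The words searched, on both strands, were TTTCCCGC, TTTCGCGC, TTTGCCGC and TTTGGCGC. They occurred in 2 of the 15 windows of the 8 genes and in 2.26% of all windows. The Dnmt1 window is that of start 3, on the minus strand at chr9:20952574-20952873, and the Uhrf1 window is that of start 2, on the plus strand at chr17:56304063-56304362.
Dnmt1 start 3: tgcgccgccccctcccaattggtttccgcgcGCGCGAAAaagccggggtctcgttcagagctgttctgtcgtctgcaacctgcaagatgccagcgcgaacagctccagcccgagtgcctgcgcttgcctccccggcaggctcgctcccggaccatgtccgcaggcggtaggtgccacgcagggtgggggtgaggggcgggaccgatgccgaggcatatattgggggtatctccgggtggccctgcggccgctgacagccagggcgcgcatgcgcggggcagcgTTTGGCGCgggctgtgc
Uhrf1 start 2: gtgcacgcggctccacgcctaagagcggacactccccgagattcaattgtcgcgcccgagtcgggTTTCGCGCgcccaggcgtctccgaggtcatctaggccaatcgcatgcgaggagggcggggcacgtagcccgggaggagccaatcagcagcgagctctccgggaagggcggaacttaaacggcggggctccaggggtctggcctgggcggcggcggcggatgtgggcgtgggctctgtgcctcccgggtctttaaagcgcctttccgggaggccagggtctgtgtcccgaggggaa
Counted from the start, the Dnmt1 words span -219 to -212 (on the opposite strand) and 34 to 41, and the Uhrf1 word spans -185 to -178. None overlapped a GC box (GGGCGG) or a CCAAT box (CCAAT) in these windows. A match is a description of letters, and binding was not measured.

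Tet2 was called higher in E10.5 against E7.5 on its representative probe set and not on the other. The representative, 1455300_at, read 38.0, 96.1 and 56.7 at E7.5, 89.1, 150 and 105 at E8.5, 180, 162 and 189 at E9.5, and 243, 212 and 314 at E10.5. It then read 587 and 599 at E12.5, 504 and 541 at E14.5, 555 and 432 at E16.5, and 526 and 536 at E18.5. Signals climbed through the earlier stages and held level in the later ones. At E10.5 the mean was 256 ± 52.4, against 63.6 ± 29.7 at E7.5, a log2 change of 1.69 ± 0.21 (adjusted p = 6.9e-07). No single step of a day inside the earlier set was called, and the changes were 0.68, 0.55 and 0.46. The second probe set, 1438781_at, changed by 0.87 in E10.5 against E7.5 (adjusted p = 0.0066), which is under the 2-fold limit, and read 439 to 717 from E12.5 on, against 30.8 to 145 up to E10.5. The change of Tet2 in E18.5 against E12.5 was -0.15 ± 0.26.

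Tet1 was near level up to E10.5. Probe set 1455425_at read 436, 427 and 516 at E7.5, 475, 475 and 579 at E8.5, 506, 427 and 575 at E9.5, and 518, 512 and 421 at E10.5. It then read 760 and 758 at E12.5, 665 and 550 at E14.5, 462 and 346 at E16.5, and 368 and 389 at E18.5. All 4 earlier stages overlapped. At E18.5 the mean was 378 ± 14.54, against 759 ± 1.97 at E12.5, a change of -0.96 ± 0.17 (adjusted p = 7.7e-05) that stopped short of 2-fold. Another Tet1 probe set, 1429448_s_at, read 120 and 119 at E18.5, against 338 and 347 at E12.5, and was called at -1.34, although its signals at E16.5 and E18.5 were under the array median. A further probe set, 1419896_at, changed by -0.66 (adjusted p = 0.052) and was not called. Another, 1419897_at, was above the array median on 0 of 20 arrays and was not tested.

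Tet3 (1439324_at) read between 9.12 and 85.6 on the 20 arrays. Its highest signal was on an array of E8.5, the stage that also held the lowest. With no filter on low signals its change was -0.32 ± 0.39 in E10.5 against E7.5 and -0.99 ± 0.48 in E18.5 against E12.5 (adjusted p = 0.105). At these signals a difference between stages was not detectable with these arrays.

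**Figure D5:**
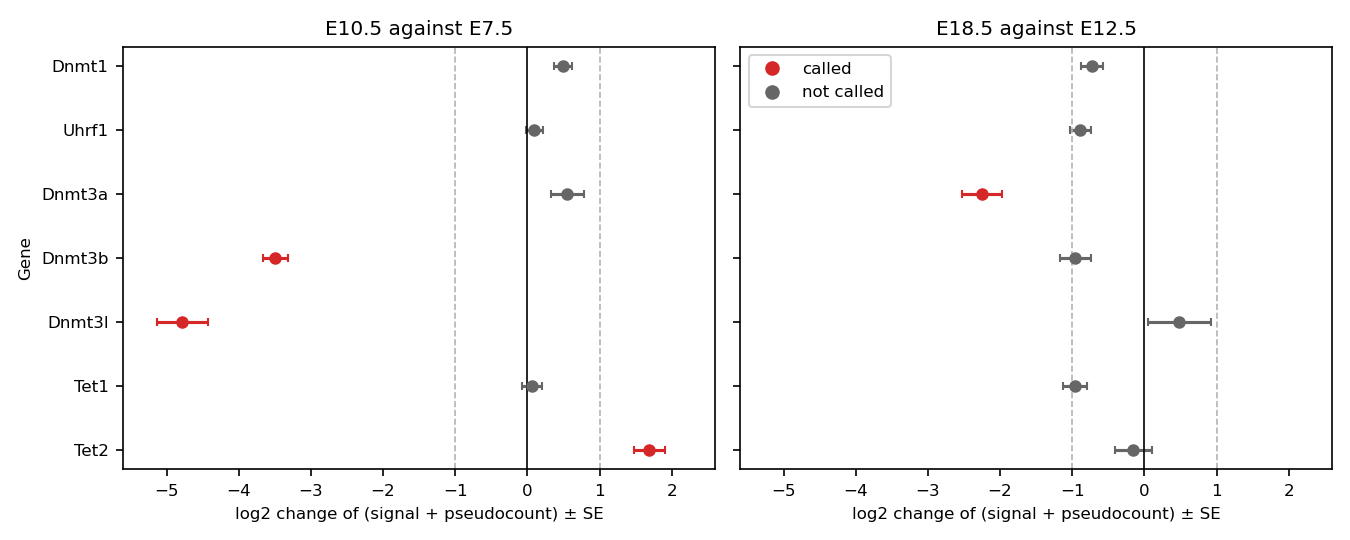
Log2 change of (signal + pseudocount) ± SE of the 7 tested genes in E10.5 against E7.5 (left) and E18.5 against E12.5 (right), with called genes in red, others in grey and dashed lines at a 2-fold change. Dnmt3b, Tet2 and Dnmt3l, whose call the filter fixed, were called on the left and Dnmt3a on the right, where Uhrf1, Dnmt3b and Tet1 lie just inside the 2-fold line.

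In E18.5 against E12.5, 5 of 7 genes were lower at an adjusted p below 0.05 with no minimum fold, where 29.2% of all genes were. On the representative probe sets Dnmt3a alone among them was past the 2-fold limit, at 4.76-fold, while other probe sets of Dnmt1, Uhrf1 and Tet1 also passed it. Just short of it were Tet1 and Dnmt3b, both at 1.94-fold, and Uhrf1 at 1.85-fold. The median change over the 7 genes was -0.89, against -0.09 over all genes tested. In E10.5 against E7.5 the median was 0.10, against 0.11, since falls, rises and level genes were mixed. The step counts were 2 of 7 in E8.5 against E7.5 (11.2% of all genes), Dnmt3b and Dnmt3l, whose call the filter fixed. They were 1 of 7 in E9.5 against E8.5 (4.17% of all genes) and 1 of 7 in E14.5 against E12.5 (3.65%). limma called 0 of 7 in E10.5 against E9.5 (3.66% of all genes), in E16.5 against E14.5 (3.78%) and in E18.5 against E16.5 (4.29%), with 3 genes at an unadjusted p below 0.05 in each. With no minimum fold, 2, 2 and 1 genes were lower in these steps at an adjusted p below 0.05, and 0 higher. Uhrf1 was among them each time, at -0.45, -0.54 and -0.60.

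Across the change of array set, E12.5 against E10.5, 3 of 7 genes were called, where 12.6% of all genes were. Uhrf1 changed by -1.35 ± 0.13, Dnmt3a by -1.04 ± 0.25 and Tet2 by 1.15 ± 0.23, and all of these carry the array set as well as the stage. Dnmt3a was not called without E10.5 replicate 1 (-0.92) or without E12.5 replicate 1 (-0.925), and its probe sets 1423063_at and 1460324_at changed by 0.93 and 0.78, in the opposite direction. The change of Tet2 was under 2-fold with quantile normalization (0.84), with 75th percentile scaling (0.91) and with a pseudocount 4 times larger (0.96). On its other probe set, 1438781_at, the change was larger, at 2.11, and was called (adjusted p = 6.8e-06, limma). Tet1 changed by 0.63 on its representative and by -0.29 and -0.31 on 1419896_at and 1429448_s_at.

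Genes that work with these enzymes were read from lists of known roles. Of 12 tested maintenance and recruitment partners, limma called 0 in E10.5 against E7.5 (7 at an unadjusted p below 0.05). It called 6 lower in E18.5 against E12.5, where 21.7% of all genes were called in either direction. Those 6 included Zfp57, a zinc finger protein that protects methylation at imprinted regions (-2.02), Suv39h2, a histone H3 lysine methyltransferase (-1.86), Hells, a remodelling ATPase needed for methylation of repeats (-1.51), and its partner Cdca7 (-1.39). Zfp57 averaged 27.4 at E18.5, against 179 at E12.5. The median of the list was -0.90, against -0.09 over all genes.

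Of 15 genes of oxidation and base excision, 3 were called higher and 1 lower in E10.5 against E7.5, a share near the 23.5% of all genes. Idh1 (2.14) and Idh2 (1.05) make the oxoglutarate that Tet enzymes use, and Cxxc4 (2.05) encodes a CXXC protein known to bind Tet2. Gadd45b, a stress-inducible factor linked to demethylation, fell by 1.73. Cxxc4 alone was called in E18.5 against E12.5, at -1.15. With no minimum fold, 9 of the 15 were lower there and 2 higher at an adjusted p below 0.05 (limma). A list for the methyl donor cycle held 8 tested genes, Trdmt1 among them. Of these, the folate enzymes Shmt1 (-1.37) and Mthfd1 (-1.16) were called lower in E10.5 against E7.5. That share is near the 23.5% of all genes called in either direction. With no minimum fold, 6 of the 8 were lower and 1 higher at an adjusted p below 0.05 (limma). Their median change was -0.58, against 0.11 over all genes. In E18.5 against E12.5 limma called 0 of the 8 (3 at an unadjusted p below 0.05). A list of readers of methylated DNA held 8 tested genes, Mbd3 among them. Of these limma called 0 in either comparison, with 3 at an unadjusted p below 0.05 in the first and 7 in the second. With no minimum fold, 5 of the 8 were lower and 1 higher in E18.5 against E12.5 at an adjusted p below 0.05 (limma). Their median change there was -0.445, against -0.089 over all genes. In E10.5 against E7.5, 3 were higher and 0 lower by that measure. Zbtb33, a zinc finger reader, had the largest early change, 0.89, chosen after its value was seen.

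Genes with the most similar profiles were ranked by Pearson correlation over the 20 arrays, after the mean of each array set was taken out, as a description among 12043 or 12044 named genes. For Dnmt3b they were Gtf2h1 (0.969), Rhox5 (0.964) and Zpr1 (0.956). For Dnmt3l they were Nanog (0.962), Mesp1 (0.962) and Vps26a (0.960), values that rest on the 3 arrays of E7.5, since Nanog correlated with it at 0.126 in the later set and 0.979 in the earlier. Tet2 was nearest to Scrn1 (0.955), Fras1 (0.949) and Nr4a2 (0.949). For Dnmt3a they were Cxxc5 (0.921), Smarcb1 (0.917) and Pop4 (0.912). Dnmt1 was nearest to Sf3b1 (0.908), Setd5 (0.908) and Tut4 (0.904), Uhrf1 to Exosc9 (0.862), Blm (0.860) and Prps1 (0.857), and Tet1 to Tgs1 (0.901), Map3k7 (0.897) and Txnrd1 (0.896). Among the genes themselves, the correlation of Dnmt3b with Tet2 was 0.465 in the later set and -0.884 in the earlier.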

How the data were processed

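Whole mouse embryos of 8 stages were measured on 20 arrays. Per the submitters' processing notes, the deposited intensity values are MAS5 signals per probe set on a linear scale, with a version not given in the sources used here. All arrays had the same mean after the lowest and highest 2% of values were trimmed, and no other normalization was applied. All 20 columns matched a sample, and 0 columns were left unused. Of 45101 probe sets, 64 were controls. Gene symbols came from the platform annotation, and probe sets with several symbols (932) or with none, controls included (9224), were left out.

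A gene was represented by its probe set with the highest mean log2 value. Values were analysed as log2(value + 25.9), where 25.9 is the median array's 25th percentile, and genes above the array median on at least 2 arrays were tested. All arrays were fitted with a mean per stage by lmFit of limma 3.58.1 (R 4.3.3), then contrasts and eBayes with a trend, on 12 residual degrees of freedom. P-values are two-sided and were adjusted by Benjamini and Hochberg's method across all genes of a comparison. The fit was tested on simulated data with 200 changed genes. Promoter windows were RefSeq's, found for all 8 genes.

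The genes, lists, comparisons and alternatives were chosen with earlier results of these data known. Named genes were the 8 members with all their probe sets, up to 4 called genes of a list by size of change, and the 3 most similar profiles of each tested member, without uncharacterised loci. Genes represented by _x_at or _s_at probe sets were also left out of that ranking of profiles. Some listed genes were not analysed here. The comparison of probe sets of a gene and the fits of other probe sets were added after the data were seen.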

Additional observations from a re-analysis of the deposited data

How the results depend on the processing

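The number of arrays limits the precision, and signals near the array median or under it (Dnmt3l after E7.5, Tet3, Tet2 at E7.5, Dnmt3a probe set 1423066_at and Tet1 probe set 1429448_s_at at E16.5 and E18.5) limit what could be detected. In E10.5 against E7.5 the count of 3 called genes became 2 with the filter at the 75th percentile, which left Tet2 untested, 4 with a gene's probe sets averaged and 5 with no minimum fold. In E18.5 against E12.5 the count of 1 became 4 with quantile normalization, 2 with averaged probe sets and 5 with no minimum fold. In E12.5 against E10.5 the count of 3 ranged between 1 with a pseudocount 4 times larger and 6 with no minimum fold, and over the 6 steps inside an array set the count of 4 became 3 with averaged probe sets and 11 with no minimum fold. With single arrays left out the ranges were 3 to 3, 1 to 2, 2 to 3 and 3 to 4, where the added calls in E18.5 against E12.5 were Dnmt3b without E12.5 replicate 2 (-1.01) or E18.5 replicate 1 (-1.03) and Uhrf1 without E12.5 replicate 1 (-1.18). Arrays of a set with the same number correlated in their deviations at a median of 0.05 (8 of 30 pairs over 0.1, and 0 of 48 pairs with different numbers). Those numbered 1 of E7.5 to E10.5 did so in 6 of 6 pairs (0.14 to 0.282), a hint from the data, and numbers were not used as pairs. With the replicate block the counts were 3, 1, 4 and 4, and it changed the call of Dnmt1 in E12.5 against E10.5 (-1.02) alone. Quantile normalization added Dnmt1 (-1.17), Dnmt3b (-1.19) and Tet1 (-1.17) in E18.5 against E12.5. Averaged probe sets gave Dnmt3a 1.18 in E10.5 against E7.5 and -0.58 in E14.5 against E12.5. Among changes with an adjusted p below 0.05 as reported, 4 of 469 alternative values had the other sign, all across the array sets with another probe set, for Dnmt3a (0.933 and 0.785) and Tet1 (-0.294 and -0.312), and the cause was not tested. Among the other changes 35 of 622 did, among them Dnmt3a in E8.5 against E7.5 (0.129), which was -0.707 on 1423063_at (adjusted p = 0.030, limma). The median change over all genes in E10.5 against E7.5 was 0.111, against 0.006 with quantile normalization and -0.058 with 75th percentile scaling, and in E12.5 against E10.5 it was 0.118, -0.11 and -0.108.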

Other observations

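Germline genes known to be silenced by DNA methylation in somatic cells, with Dnmt3b among the enzymes that do so in the mouse embryo, were lower after E7.5. Of 18 such genes listed, 16 were on the array and 6 were tested, which passed the signal filter mainly through E7.5, so their fall is a description. Tex19.1 averaged 33.1 at E10.5, against 2339 at E7.5 (log2 change -5.36 ± 0.25), Sycp3 14.0, against 192 (-2.46 ± 0.32), Ddx4 33.8, against 274 (-2.34 ± 0.33), and Stk31 17.3, against 103 (-1.61 ± 0.38). Sohlh2 (-0.50) and Asz1 (-0.47) were not called. Tex19.1 made up most of the summed signal of the 16 genes at E7.5. That sum was 441 to 541 at E8.5, against 3094 to 4029 at E7.5, and stayed at or under 734.5 on the arrays of the later stages. In the same step the marker sums of epiblast, trophoblast and endoderm genes given above also fell, and their part in these values was not tested. In E18.5 against E12.5 limma called 0 of the 6, with 1 at an unadjusted p below 0.05.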
